A study of Mus musculus with 2 samples.

Results

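The genes described are the 3 troponin T genes Tnnt1, Tnnt2 and Tnnt3, chosen by name among the 15324 annotated mouse genes with a read in either library. All reads of models assigned to them were used, with the exon chain of each model. The reads are long reads from total RNA of gastrocnemius muscle, which lies in the calf, of B6CASTF1/J female mice aged 36 days. There were 2 libraries of this 1 group, replicate 2 and replicate 1, so no condition could be compared. The labels give the libraries different female numbers and tissue samples under a shared donor entry, and each was started from 2 µg of RNA. Reads in annotated genes numbered 1602272 in replicate 2 and 797105 in replicate 1.

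Troponin T is the subunit that ties the troponin complex to tropomyosin on the thin filament of striated muscle. Tnnt1 encodes the slow skeletal form, Tnnt2 the cardiac form and Tnnt3 the fast skeletal form. In Tnnt3, a run of very short exons near the 5′ end is spliced in many combinations, and near the 3′ end either exon 16 or exon 17 is used. A fetal exon, here called F, lies among the short exons. A read that covers both ends shows which 5′ exons and which 3′ exon sat on the same molecule.

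Exons 16 and 17 are both 41 bases long and follow one another on chromosome 7 (mm10, plus strand), exon 16 at chr7:142513665-142513705 and exon 17 at chr7:142514326-142514366. They are shown with the second-last exons of Tnnt1 (chr7:4507383-4507423, minus strand) and Tnnt2 (chr1:135851696-135851736, plus strand), which have the same length. The sequences are from the GENCODE M21 transcripts. Capitals in exon 16 mark bases that differ from exon 17, and capitals in the other exons mark bases that differ from exon 16.
Tnnt3 exon 16: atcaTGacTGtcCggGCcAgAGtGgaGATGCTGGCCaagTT
Tnnt3 exon 17: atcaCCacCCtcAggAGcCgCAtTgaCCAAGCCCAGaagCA
Tnnt1 second-last exon: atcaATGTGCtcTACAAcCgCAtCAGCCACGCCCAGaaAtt
Tnnt2 second-last exon: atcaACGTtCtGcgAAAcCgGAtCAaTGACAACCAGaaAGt
Exons 16 and 17 were identical at 18 of 41 bases (43.9%). Exon 17 matched the Tnnt1 exon at 25 bases (61.0%) and the Tnnt2 exon at 22 bases (53.7%). Exon 16 matched them at 13 bases (31.7%) and 15 bases (36.6%).

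The annotated 5′ cassette exons are shown because their lengths bear on what the models hold. Exons 4 to 8 lie between chr7:142502740-142502757 (exon 4) and chr7:142505516-142505530 (exon 8), and exon F at chr7:142507750-142507788. No letters are capitalised.
Tnnt3 exon 4: aacaatacgaagaggaag
Tnnt3 exon 5: aggaggcccaagaggaag
Tnnt3 exon 6: aagtccaggaggaag
Tnnt3 exon 7: cccccgaaccag
Tnnt3 exon 8: aggaagtccaagaag
Tnnt3 exon F: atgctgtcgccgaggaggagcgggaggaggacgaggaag
Each of these 6 exons has a length divisible by 3. In the annotation, exon 16 is in 7 of 23 coding Tnnt3 transcripts, 1 of them with exon F, and exon 17 is in 14, of which 6 hold exon F.

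Tnnt3 was the troponin T gene with many reads in both libraries. It had 6693 reads (4177 CPM, reads scaled to the library's total in annotated genes) in replicate 2 and 2920 reads (3663 CPM) in replicate 1. Its ratio was 1.14 (95% interval 1.09 to 1.19, replicate 2 over replicate 1), with an adjusted p of 4.85e-08 by Fisher's exact test, and it did not reach the 2-fold difference a call required. With Atp2a1, a calcium pump gene with 48342 reads in replicate 2 and 87684 in replicate 1, left out of the totals, the adjusted p was 0.143.

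Tnnt1 had 6922 reads (4320 CPM) in replicate 2 and 7 reads (8.78 CPM) in replicate 1, a ratio of 492 (95% interval 239 to 1224), and was called higher in replicate 2. The ratio was 63.3 without incomplete and Genomic models, since 1 incomplete model held 94.4% of its reads in replicate 2. Of 8096 genes tested, 11.3% were called in either direction and 5.78% were called higher in replicate 2. Tnnt2 had 2 reads in replicate 2 and 1 read in replicate 1, too few to test. All 6 listed markers of slow fibres were higher in replicate 2, with a summed level of 3610 CPM in replicate 2 and 22.6 CPM in replicate 1. Of these, Myh7, the slow myosin heavy chain, was at 590 reads in replicate 2 and at 0 in replicate 1. Of the 6 fast fibre markers, 1 was called higher and 1 lower. Atp2a1 was at 30171 CPM in replicate 2 and 110003 CPM in replicate 1, and the other 5 summed to 90652 CPM in replicate 2 and 95641 CPM in replicate 1. Myh1, a fast myosin heavy chain, was 9.44-fold higher in replicate 2. Myh4, another fast myosin heavy chain with far more reads, went the other way without being called. Its ratio of replicate 2 over replicate 1 was 0.602.

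Markers of other cell types also differed between the libraries. Of the 8096 genes tested, 5.47% were called lower in replicate 2. Both blood markers were called lower in replicate 2, at a sum of 455 CPM in replicate 2 and 2061 CPM in replicate 1, as were both adipocyte markers, at 67.4 CPM in replicate 2 and 378 CPM in replicate 1. Of the Schwann cell markers 1 of 2 was lower (75.5 CPM in replicate 2, 206 CPM in replicate 1), and of the smooth muscle markers 1 of 3 (29.96 CPM in replicate 2, 46.4 CPM in replicate 1). Of the 5 heart or immature muscle markers 1 was tested and called lower (290 CPM in replicate 2 and 708 CPM in replicate 1 over the list). Whether the slow fibre markers, or those of the other cell types, play a part in the Tnnt1 and Tnnt3 differences was not tested, and in bulk tissue more slow cells and more RNA per slow cell cannot be told apart.

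Of the 16 thin filament genes listed, 15 were tested. Of these, 5 were called higher and 1 lower in replicate 2, against 5.78% and 5.47% of all genes tested. Their median log2 ratio was 0.18, and that of all genes tested was 0.05. The genes whose ratio lay nearest to that of Tnnt1, among 15 candidates in these 2 libraries, were Tnnc1 (slow troponin C), Tpm3 (slow tropomyosin) and Tnni1 (slow troponin I). With 1 CPM added to each level, their log2 ratios were 9.28, 6.73 and 5.41, and that of Tnnt1 was 8.79. Tnnc1 was at 2251 reads in replicate 2 and at 1 read in replicate 1. The genes nearest to Tnnt3 were Tnnc2 (fast troponin C), Tmod4 and Neb. Of 16 splicing factors listed, 13 were tested and 3 were lower in replicate 2, against 5.47% of all genes. These were Mbnl2 (67.4 CPM in replicate 2, 230 CPM in replicate 1), Celf2 (27.5 CPM in replicate 2, 59.0 CPM in replicate 1) and Rbfox1 (31.2 CPM in replicate 2, 62.7 CPM in replicate 1).

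The deposited Tnnt3 models rarely matched an annotated transcript. Known models held 26 of 6693 reads (0.388%) in replicate 2 and 6 of 2920 reads (0.205%) in replicate 1, all in 1 model in each library, although 27 transcripts are annotated. Models that joined annotated splice sites in a new combination held 35.2% in replicate 2 and 26.2% in replicate 1. Models with an unannotated splice site held 13.7% in replicate 2 and 30.5% in replicate 1, and incomplete models 33.9% in replicate 2 and 29.0% in replicate 1. Genomic models held 16.8% in replicate 2 and 14.1% in replicate 1. Models of a single exon, which show no splicing, held 1122 reads in replicate 2 and 412 in replicate 1 and count in the Tnnt3 level. The libraries had 234 Tnnt3 intron chains in replicate 2 and 147 in replicate 1, of which 84 were shared, 35.9% and 57.1% of the chains. The shared chains carried 95.6% of the spliced reads in replicate 2 and 97.2% in replicate 1.

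The short cassette exons were nearly absent with their annotated boundaries. Exons 3, 6, 7, 8 and F were held by 0 of 3275 to 3303 reads that spanned them in replicate 2 and 0 of 1671 to 1677 in replicate 1. Exon 4 was held within 0 spanning reads of either library, and began the model of 30 reads in replicate 2 and 6 in replicate 1. Exon 5 was held by 2 of 3274 reads in replicate 2 and 0 of 1669 in replicate 1, and exon 9 by 18 of 3294 in replicate 2 and 8 of 1677 in replicate 1. For exon F, 0 of 3293 reads in replicate 2 allows a share of up to 0.0911%, and 0 of 1677 in replicate 1 up to 0.179% (3 counts, counting error only). These shares concern the deposited models. Which bases of a read lie behind an exon of a model was not resolved, so absence of the fetal exon or of any other short exon from the molecules does not follow from them. The combinations of annotated cassette exons with exon 16 or 17 therefore cannot be read from these models.

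What the models did hold between exon 1 and exon 11 was a set of other structures, described after they were seen in the data. Reads that ran from exon 1 through exon 11 numbered 3185 (47.6% of Tnnt3 reads) in replicate 2 and 1623 (55.6%) in replicate 1. They showed 68 structures in replicate 2 and 41 in replicate 1, and 0 reads in either library had only annotated exons there. Structures are named here by the lengths of their exons in bases, 5′ to 3′. In the 6 structures with at least 30 reads in each library, the first exon began at the start of exon 2 and the last ended at the end of exon 10. Annotated coding transcripts that join exon 1 to exon 11 hold 147 to 231 bases there, each total divisible by 3. Of the 6 structures, only 39+62+46, of 147 bases, has a total divisible by 3. The others would shift the reading frame if taken as they stand, so they are described as models and not as coding forms.

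**Figure D1:**
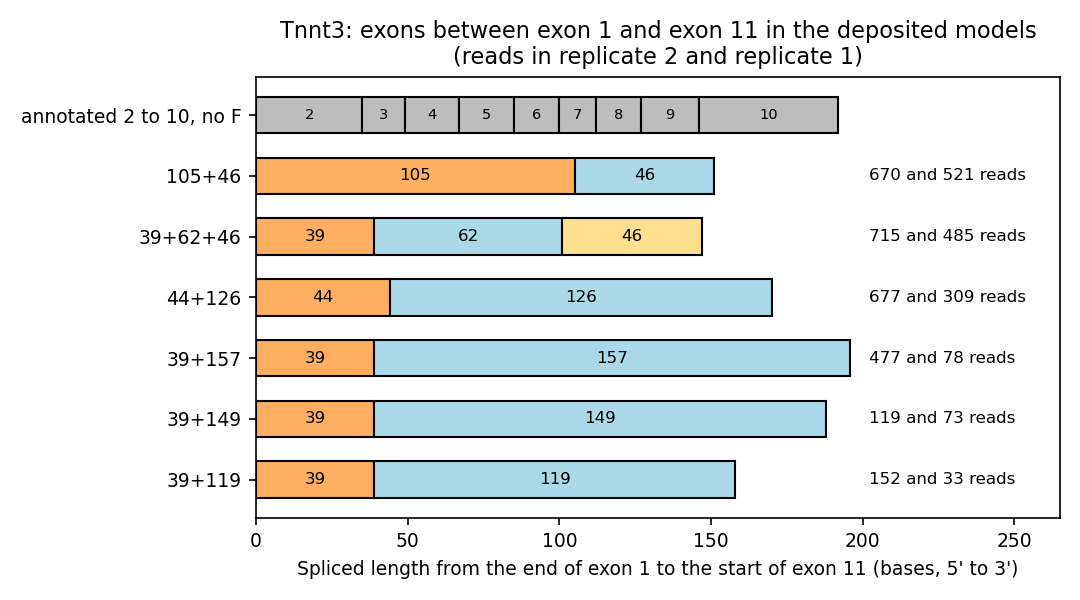
Spliced length in bases of the exons between Tnnt3 exon 1 and exon 11, for the annotated exons 2 to 10 without F (grey) and for the 6 structures with at least 30 reads in each library (coloured boxes with exon lengths). Reads at the right are given for replicate 2 and then replicate 1, and the structures sum to between 147 and 196 bases.

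The commonest structures were 39+62+46, 105+46 and 44+126. Structure 39+62+46 had 715 reads (22.4%, 95% interval 21.01 to 23.9) in replicate 2 and 485 reads (29.9%, 27.7 to 32.2) in replicate 1. Structure 105+46 had 670 reads (21.04%) in replicate 2 and 521 reads (32.1%) in replicate 1. Structure 44+126 had 677 reads (21.3%) in replicate 2 and 309 reads (19.0%) in replicate 1. The order of 105+46 and 39+62+46 was not the same in both libraries.

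Structure 39+157 had 477 reads (14.98%, 95% interval 13.8 to 16.3) in replicate 2 and 78 reads (4.81%, 3.82 to 5.96) in replicate 1. Structure 39+119 had 152 reads (4.77%) in replicate 2 and 33 reads (2.03%) in replicate 1. Structure 39+149 had 119 reads (3.74%) in replicate 2 and 73 reads (4.50%) in replicate 1. The 6 structures together held 88.2% of these reads in replicate 2 and 92.4% in replicate 1. Structure 39+157 held 115 bases more than annotated exons 2 and 10 together, where the annotated exons 3 to 9 without F sum to 111 bases, and no annotated transcript has its total of 196 bases. Of all these reads, 23.5% in replicate 2 and 30.5% in replicate 1 had a summed length equal to that of an annotated transcript. Nearly all of them, 715 of 748 reads in replicate 2 and 485 of 495 in replicate 1, had the structure 39+62+46, of 147 bases. The 1 annotated transcript with that length holds exon 17.

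At the 3′ end the exclusive exons were resolved with their annotated boundaries. Exon 17 was held by 2320 reads and exon 16 by 3150 in replicate 2, and by 323 and 2145 in replicate 1, counting reads with exactly 1 of them. The share with exon 17 was 42.4% (95% interval 41.1 to 43.7) in replicate 2 and 13.1% (11.8 to 14.5) in replicate 1, with a mean of 27.8% ± 20.7 (SD, n = 2). Both exons were on the same read in 17 reads of replicate 2 and 5 reads of replicate 1. The intervals of the libraries lay far apart, and exclusive use held in both.

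Internal exons were tested where inclusion was 2 to 98% in at least 1 library. Exon 17 inclusion was 42.5% in replicate 2 and 13.3% in replicate 1, a difference of 29.3 percentage points (adjusted p = 2.81e-156, Fisher's exact test). Exon 16 inclusion was 56.8% in replicate 2 and 86.4% in replicate 1, a difference of -29.7 points (adjusted p = 3.81e-154). Both were called, against 0.672% of the 2678 exons tested. Such a test sets 1 library against the other, and its p measures counting error alone. Higher calls made up 0.485% and lower calls 0.187% of the exons tested. The 62-base exon was held by 22.6% of reads in replicate 2 and 29.8% in replicate 1, a difference of -7.22 points (adjusted p = 1.76e-05), under the 10 points a call required.

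**Figure D2:**
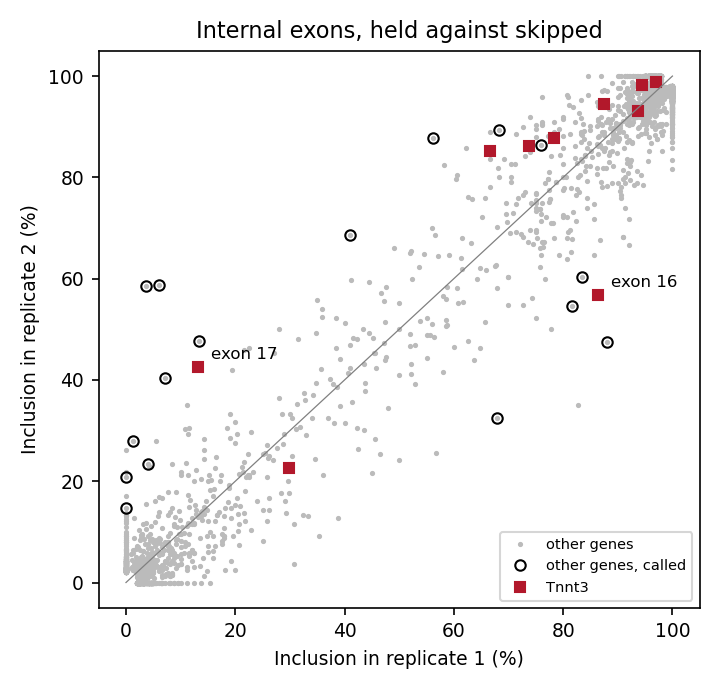
Inclusion in percent of each of the 2678 internal exons tested, in replicate 1 (horizontal) and replicate 2 (vertical), with the line of equal inclusion. Squares are Tnnt3 exons and open circles are called exons of other genes; exon 17 lies above the line and exon 16 below it.

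Exon 17 went with some 5′ structures far more often than with others, in both libraries. In reads with structure 39+157, 413 held exon 17 and 60 exon 16 in replicate 2, a share of 87.3% (95% interval 84.0 to 90.2). In replicate 1, 37 held exon 17 and 39 exon 16, a share of 48.7% (37.0 to 60.4). The odds of exon 17 were 13.7 times those of all other structures in replicate 2 (95% interval 10.3 to 18.5) and 7.19 times in replicate 1 (4.34 to 11.9). Structure 39+119 was alike in this, with 85.4% exon 17 in replicate 2 and 45.5% in replicate 1, and odds ratios of 9.07 (5.70 to 15.1) and 5.72 (2.64 to 12.2). High shares were not particular to these structures. With fewer reads, 39+145 held exon 17 in 42 of 50 reads in replicate 2 and 2 of 8 in replicate 1. For 44+83+46 it was 23 of 33 and 4 of 9. The remaining structures with at least 20 reads summed, outside the 6, held exon 17 in 10% to 38.1% in replicate 2.

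The 3 commonest structures mostly carried exon 16. Structure 105+46 held exon 17 in 28.3% of reads in replicate 2 and 9.62% in replicate 1. For 39+62+46 the shares were 23.8% in replicate 2 and 8.90% in replicate 1, and for 44+126 they were 22.8% and 10.7%. Structure 39+149, whose second exon starts a few bases later than that of 39+157, held exon 17 in 42.9% of reads in replicate 2 and 21.9% in replicate 1. Its odds ratios, 1.06 (0.718 to 1.56) and 1.88 (0.989 to 3.40), had intervals that include 1.

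**Figure D3:**
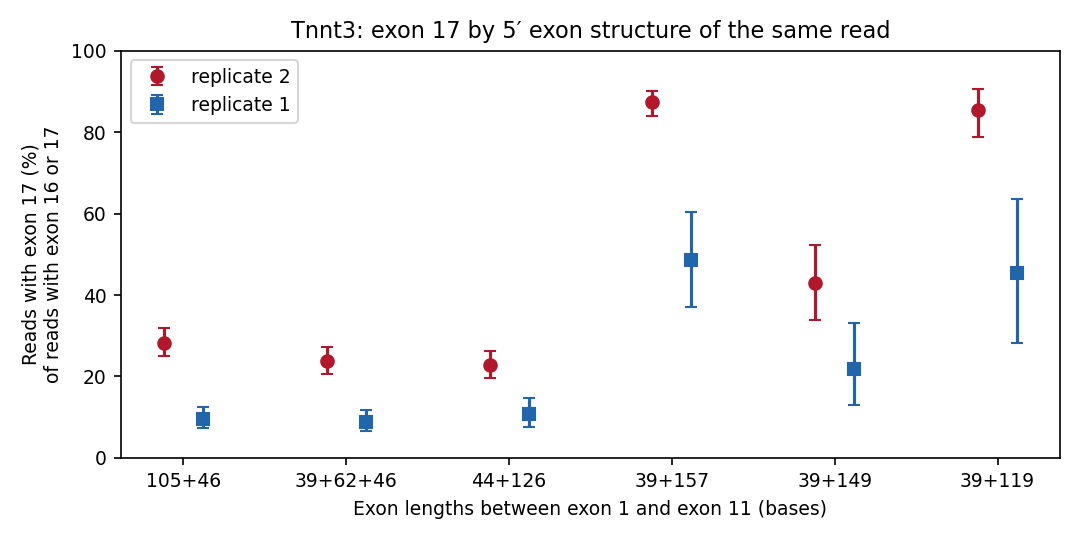
Percent of reads with exon 17, of Tnnt3 reads with exactly 1 of exons 16 and 17, for each 5′ structure; circles are replicate 2, squares replicate 1 and bars exact 95% intervals. Structures 39+157 and 39+119 stand at 87.3% and 85.4% in replicate 2 and at 48.7% and 45.5% in replicate 1, above the other 4 in each library.

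The linkage was tested over all pairs of alternative exons in each library, taking an exon with its exact boundaries against any other structure, a definition chosen after the data were seen. The 157-base exon and exon 17 had a log2 odds ratio of 3.58 in replicate 2 (adjusted p = 1.23e-107, Fisher's exact test) and 2.72 in replicate 1 (adjusted p = 3.60e-13). For the 119-base exon it was 3.07 (adjusted p = 6.96e-28) and 2.52 (adjusted p = 2.33e-05). The 39-base form of exon 2, which begins both of these structures and also 39+62+46 and 39+149, had 1.41 in replicate 2 and 0.77 in replicate 1 and was also called together with exon 17. Its call rests in part on the same reads as those of the 157-base and 119-base exons. Of 18 such exons tested against exon 17, 3 were called together with it and 3 apart. Of the 2872 pairs with another exon between them, 20.1% were called, 19.2% together. Without that condition 24.2% were called. The 3 of 18 called together with exon 17 are no larger a share than that 19.2%. The median size of the log2 odds ratio over the 2872 pairs, averaged over the libraries, was 4.37. The 157-base and 119-base exons, at 3.15 and 2.79 on average, lay below it.

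Apart from exon 17 were the 62-base exon, with log2 odds ratios of -1.45 in replicate 2 and -0.90 in replicate 1, and the 105-base exon, with -1.01 and -0.75. Pairs called apart made up 0.94% of the 2872 pairs with another exon between them, and 130 of all 3841 pairs tested. With models of at least 3 reads alone, the 105-base exon had -1.005 in replicate 2 and -0.58 in replicate 1 (adjusted p = 0.0987 in replicate 1), so that the pair was no longer called. The third exon called apart was exon 10 with its annotated 46 bases, at -1.28 in replicate 2 and -1.17 in replicate 1. It ends both 39+62+46 and 105+46, so these calls rest in part on the same reads. The 126-base exon had -1.49 in replicate 2 and -0.32 in replicate 1 (adjusted p = 0.740 in replicate 1) and was not called. With an exon counted as skipped only where an intron spans it, the 62-base exon was again apart from exon 17, at -1.42 in replicate 2 and -0.89 in replicate 1. Under that definition 67.2% of 491 pairs with an exon between them were called, 66.6% together and 0.611% apart; over all pairs the share called was 71.9%.

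**Figure D4:**
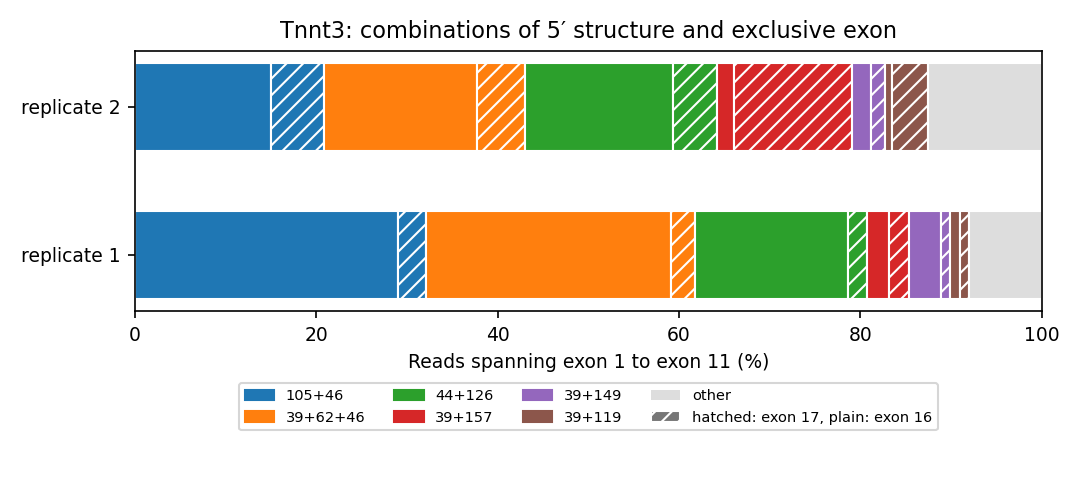
Percent of Tnnt3 reads from exon 1 through exon 11 with each 5′ structure (colours), divided into reads with exon 16 (plain) and exon 17 (hatched); grey holds all remaining reads. Structure 39+157 with exon 17 makes up 12.97% of reads in replicate 2 and 2.28% in replicate 1.

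As shares of all reads from exon 1 through exon 11, the commonest combination in replicate 2 was 39+62+46 with exon 16 (16.9%, and 27.1% in replicate 1). In replicate 1 it was 105+46 with exon 16, at 14.9% in replicate 2 and 29.0% in replicate 1. Structure 39+157 with exon 17 made up 12.97% in replicate 2 and 2.28% in replicate 1.

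Exon use by exact boundaries also differed between the libraries. The 157-base exon was in 15.1% of spanning reads in replicate 2 and 4.93% in replicate 1, a difference of 10.2 points (adjusted p = 2.23e-26, Fisher's exact test). The 105-base exon was in 20.7% in replicate 2 and 31.7% in replicate 1 (-11.0 points), and exon 10 with its annotated 46 bases in 51.2% in replicate 2 and 67.2% in replicate 1 (-15.9 points). With exons 16 and 17 these were the 5 Tnnt3 exons called, against 0.264% of 7589 exons, 0.171% higher and 0.0922% lower. The 5 calls overlap and are not separate changes. Exons 16 and 17 replace each other, and the 157-base exon and the 46-base exon 10 end at the same base. Of 676 reads with the 105-base exon in replicate 2, 670 had the structure 105+46.

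The libraries differed both in the mix of structures and in the exon 17 share within a structure. Over the 27 structures found in both libraries, the exon 17 share was 40.6% in replicate 2 and 13.4% in replicate 1. With the structure mix of replicate 1 and the within-structure shares of replicate 2 it came to 32.0%, and with the mix of replicate 2 and the shares of replicate 1 to 18.9%. All 6 described structures held more exon 17 in replicate 2.

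Reads of models that reach exon 1 held exon 17 in 41.4% in replicate 2 and 13.4% in replicate 1, and reads of models that do not reach it in 43.8% and 12.6%. The intervals of both kinds of model overlapped within each library. Among models that start in exons 10 to 15, those starting in exon 15 had the highest share in replicate 2, with exon 17 in 53.4% of 595 reads (95% interval 49.3 to 57.5). That interval lay above those of models that reach exon 1 (39.7 to 43.2) or start in exon 13 (38.6 to 46.4) or exon 14 (37.3 to 46.2). It overlapped those of models starting in exon 10 (35.6 to 59.3), exon 11 (38.8 to 60.1) and exon 12 (34.6 to 50.1). In replicate 1 models starting in exon 15 held exon 17 in 12.9% of 171 reads (8.24 to 18.8).

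Tnnt3 had one of the more varied sets of intron chains among genes with at least 100 reads of complete spliced models. Thinned to 100 reads, its effective number of chains (the exponential of the Shannon entropy) was 14.0 in replicate 2, rank 6 of 1120 genes, and 8.72 in replicate 1, rank 8 of 595. The median gene had 1.33 in replicate 2 and 1.29 in replicate 1. The Tnnt3 chains include the 5′ structures in which the annotated short exons were not resolved, and their part in its rank was not tested.

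Tnnt1 could be described in replicate 2 alone. A single incomplete model of 3 exons, 504+41+231 bases, held 6537 of its 6922 reads (94.4%) and 5 of the 7 reads in replicate 1. Its 504-base first exon ends where annotated exon 12 ends. Without incomplete and Genomic models Tnnt1 had 229 reads in replicate 2 and 2 in replicate 1.

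The second-last 41-base exon of Tnnt1 was held by 6878 of 6880 spanning reads in replicate 2, most of them of the 3-exon model. The exons further 5′ were spanned by far fewer reads. Exon 5, of 33 bases, was held by 228 of 244 spanning reads (93.4%, 95% interval 89.6 to 96.2). Exon 6, of 22 bases, was held by 131 of 245 (53.5%, 47.0 to 59.8), and reads without it mostly carried exon 7 as 72 rather than 64 bases. The 14-base exon 3 was held by 0 of 239, and exon 2 was 55 bases in 197 of 210 reads where the annotated form of 43 bases was in 1. As for Tnnt3, these shares and those of exons 5 to 7 below concern the deposited models. Which bases of a read lie behind an exon was not resolved.

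Among reads that held exon 5, 123 of 228 (53.9%) had exons 6 and 7 as 22+64 and 103 (45.2%) had exon 7 as 72 bases. Among the 16 reads without exon 5, 9 had another structure of exons 6 and 7, 7 had 22+64 and 0 had 72. Replicate 1 had 2 such reads, both with exon 5 and 22+64, so this pattern has no replicate.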

How the data were processed

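For each of 2 libraries of 1 group the authors deposited whole-number read counts per transcript model, not normalized, and a matching annotation; per the deposited README both come from filtered alignments to mm10 with GENCODE M21, and the model classes are those of TALON. The aligner, read correction and filters: not given in the sources used here. CPM used reads in annotated mouse genes. Tests were two-sided Fisher's exact tests with Benjamini-Hochberg adjustment over all genes with at least 10 reads summed, internal exons with at least 20 reads in each library, or all exon pairs with at least 20 spanning reads and 5 per state. Internal exons were tested only where inclusion was 2 to 98% in at least 1 library. Calls needed an adjusted p under 0.05, with a 2-fold or 10-point difference, or the same direction in both libraries for pairs. Odds ratios of pairs added 0.5 to each cell. Share intervals are exact Clopper-Pearson 95% intervals and cover counting error only. Tnnt3 and Tnnt1 exons were numbered by position among exons of at least 3 annotated transcripts, with F apart. Named are the 3 members, listed thin filament genes and splicing factors, and the 3 nearest in ratio (pseudocount 1 CPM). The members and lists were chosen with earlier results of these data known. The tests were tested on simulated data. Python 3.11.15, scipy 1.17.1, edgeR 4.0.16 and DESeq2 1.42.0 were used, the last 2 for scaling factors alone.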

Additional observations from a re-analysis of the deposited data

How the results depend on the processing

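No paired analysis was possible because both libraries belong to 1 group. Of 93 recomputed values, 12 leave 1 library out of a mean of 2 and must lie within its SD, so they say nothing of stability. Of the other 81, 73 were kept and 0 reversed. A single difference or odds ratio was kept if its direction and its side of the threshold held, and a mean if it stayed within the spread. Numbers of genes, exons or pairs called were kept if they lay within a set factor of the main number, and have no direction to reverse. For example, 929 pairs called against 626 in the main setting counted as kept. Known models alone gave 4 exons called (main 18) and 11 exon pairs called (main 626), and gave no value for Tnnt1 levels, for Tnnt3 structures or for exons 16 and 17. Pairs called were 339 with models of at least 3 reads and 385 with 50 spanning reads and 10 per state. With 1 library left out, 846 to 1841 pairs were called in the other alone. The effective number of Tnnt3 chains was 11.4 on average and 19.1 with all multi-exon models; the cause was not tested. Leaving out 1 library, it was 8.72 to 14.0, the exon 17 share 13.1 to 42.4%, and the shares of 105+46, 39+62+46, 44+126 and 39+157 were 21.04 to 32.1%, 22.4 to 29.9%, 19.0 to 21.3% and 4.81 to 14.98%. Genes called were 468 higher and 443 lower in replicate 2, and 348 and 567 with Atp2a1 left out of the total, or 255 and 587 with known models alone. Taking an exon as exact against any other structure was chosen after seeing the data and gave 20 exons and 929 pairs called. Depth limits replicate 1, where 1 read is worth 1.25 CPM.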
